A study of Homo sapiens with 6 samples.

Results

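The annexin genes described here are ANXA1, ANXA2, ANXA3, ANXA4, ANXA5, ANXA6, ANXA7 and ANXA11. They were chosen by name, as members of the annexin family, and found by their Ensembl identifiers among the 58243 gene identifiers of the count tables, so that 8 of 58243 are described. The question was whether the lower level of ANXA1 in PRL3-expressing cells was shared by the rest of the family. Annexins are cytosolic proteins that bind acidic phospholipids when calcium is present, each through a conserved core of repeats. The amino-terminal tail differs between them and carries the sites for S100 and other calcium-binding partners. In tumour cells, melanoma included, they are known for membrane trafficking, repair of the torn plasma membrane, and surface proteolysis.

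The libraries hold 4-thiouridine (4sU) labeled, newly made RNA from A375, a human melanoma cell line. All gene values below are counts on exons. The paper names splicing during transcription and slight carry-over of mRNA as possible confounders, and turned to intronic reads for that reason. EV cells carried an empty vector and PRL3 cells carried a plasmid for human HA-tagged PRL3, the phosphatase encoded by PTP4A3, each by stable transfection. Both were kept in hygromycin B at 100 µg/ml and pulsed with 500 µM 4sU for 20 min. There were 3 libraries per group, named B1, B2 and B3 for EV and B9, B10 and B11 for PRL3. The sources used here do not say whether each line was 1 clone, or whether the libraries of a group came from separate cultures, so p-values measure only the spread between these libraries, which may be technical. In bulk RNA of this kind, fewer cells making a transcript and less of it made per cell cannot be told apart.

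PTP4A3 had 161 to 279 normalized counts in the EV libraries and 22065 to 28767 in the PRL3 libraries. The libraries held 36532207 to 57952035 reads on genes. Reads outside annotated exons made up 28.7 to 41.1% of uniquely aligned reads in EV and 62.8 to 69.1% in PRL3, and this difference between the groups lies beside every annexin result below; its part in them was not tested. The melanocytic markers SOX10, MITF and S100B were present in all libraries, while TYR and MLANA were at or near 0. Of the rest, TYRP1 had at most 20 reads in any library, DCT at most 11 and PMEL 26 to 61. The 8 melanocytic markers summed to 23486 to 32801 normalized counts in EV and 13532 to 16937 in PRL3, and most of this sum was SOX10 (22796 ± 4960, SD, n = 3, in EV and 12613 ± 1788 in PRL3). S100B was lower in PRL3 as well, whereas MITF had 1378 ± 150 normalized counts in EV and 1773 ± 51.3 in PRL3, with every PRL3 library above every EV library, and did not pass the test (log2 fold change 0.36, adjusted p = 0.0738, edgeR). Of the 2 keratinocyte markers, KRT5 was near 0, and their sum, nearly all KRT14, ran from 1083 to 1218 in EV and from 356 to 614 in PRL3. Their part in the annexin results was not tested.

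ANXA1, ANXA4, ANXA5, ANXA7 and ANXA11 were called lower in PRL3 than in EV cells, and no annexin was called higher. All 8 genes passed the filter on low counts, although ANXA3 did so only through its counts in the PRL3 libraries. The fall of ANXA1 was known when the family was chosen, so the question rests on the other 7 genes. Of these, 4 were called lower and 0 higher. The calls of ANXA4 and ANXA11 were lost in some alternatives given below. ANXA3 missed the threshold, which does not show that it was unchanged. These members too were listed with earlier results of these data known, so the counts describe the list and test nothing. Of the 23884 genes tested, 22.7% were called lower and 20.0% higher (edgeR quasi-likelihood, adjusted p under 0.05). The 3 PRL3 libraries lay below all 3 EV libraries for 6 annexins, ANXA1 included, as they did for 26.6% of all genes tested, and above them for 1 annexin, as they did for 29.7%. The median log2 fold change of the 8 annexins was -0.55, against 0.11 over all genes tested and -0.15 over the 14443 protein-coding genes tested. These fold changes are on the TMM scale, and a normalized count below is a read count divided by the TMM-scaled library size and multiplied by a common factor. By fold change, the percentile among the protein-coding genes was 15.9 for ANXA1, 12.1 for ANXA5, 11.8 for ANXA7, 32.3 for ANXA11, 33.1 for ANXA4, 47.8 for ANXA6, 59.0 for ANXA2 and 99 for ANXA3.

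**Figure D1:**
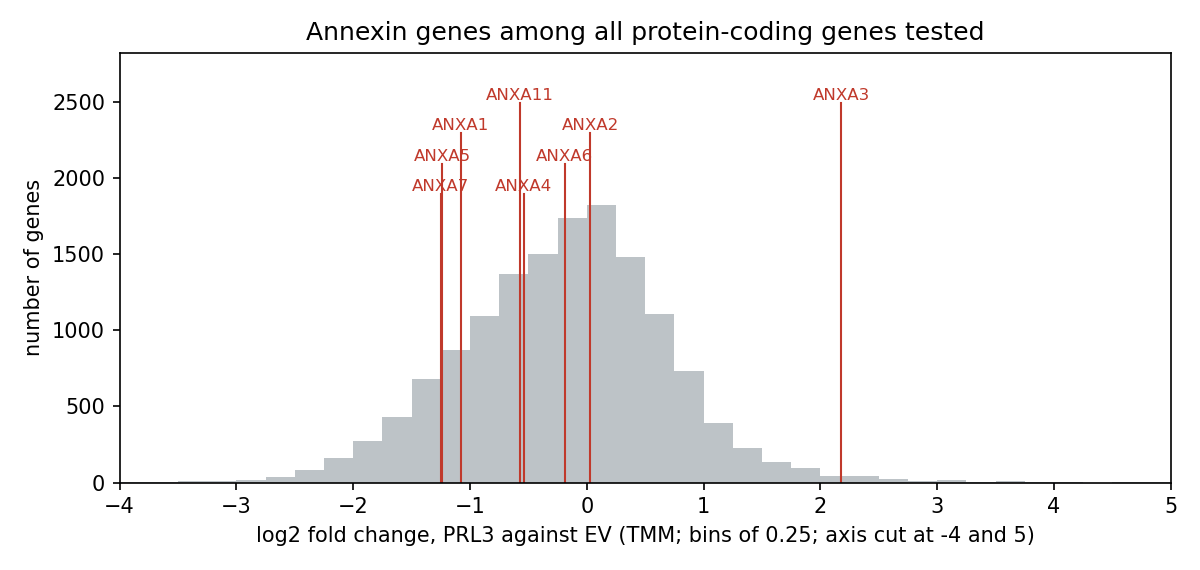
Log2 fold changes of PRL3 against EV (horizontal axis, TMM scale) for all protein-coding genes tested, as the number of genes per bin (grey bars), with a red line at the value of each annexin. ANXA7, ANXA5 and ANXA1 sit together at -1.25 to -1.08, ANXA2 sits at 0.03 and ANXA3 alone lies far to the right at 2.18.

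ANXA1, ANXA5 and ANXA7 fell most. ANXA1, which is released by cells and acts on formyl peptide receptors to restrain inflammation, lies at chr9:73151865-73170393 on the plus strand (GRCh38). It had 67178, 47670 and 41354 normalized counts in EV B1, B2 and B3, and 23429, 24555 and 26061 in PRL3 B9, B10 and B11. The groups were separate, and EV B1 stood above the other EV libraries. Its fold change of -1.08 on the log2 scale (SE 0.19, adjusted p = 4.7e-04, edgeR) is the starting point for the comparisons with the other members. Across the alternative scalings, tests and left-out libraries it ran from -1.57 to -0.58 and kept its call.

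ANXA5, which binds phosphatidylserine and is widely used to stain it on dying cells, lies at chr4:121667946-121696995 on the minus strand. Its normalized counts were 15740, 12218 and 11061 in EV B1, B2 and B3 and 4971, 5933 and 5657 in PRL3 B9, B10 and B11. Every PRL3 library was far below every EV library, and B1 was again the highest. The log2 fold change was -1.24 (SE 0.17, 95% interval -1.60 to -0.88, adjusted p = 7.7e-05, edgeR).

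ANXA7, also called synexin, takes part in calcium-dependent fusion of granules and vesicles and lies at chr10:73375101-73414076 on the minus strand. It had 3106, 2605 and 2379 normalized counts in the EV libraries and 1160, 1295 and 949 in the PRL3 libraries, in the same order of libraries. The groups were separate and the order within EV was that of ANXA1 and ANXA5. On the log2 scale the fold change was -1.25 (SE 0.17, 95% interval -1.62 to -0.87, adjusted p = 9.4e-05, edgeR). Depending on the scaling, test or left-out library it ran from -1.73 to -0.75, and that of ANXA5 from -1.72 to -0.74, with the call kept throughout. ANXA7 shares 105 exon bases with a long noncoding RNA on the other strand, and the reads were counted by strand.

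ANXA4 and ANXA11 fell by less. ANXA4, an annexin of epithelia known to aggregate membranes, lies at chr2:69644425-69827112 on the plus strand. It had 932, 880 and 1048 normalized counts in EV B1, B2 and B3 and 696, 670 and 595 in PRL3 B9, B10 and B11, so the groups did not overlap. Its log2 fold change was -0.54 (SE 0.17, 95% interval -0.91 to -0.17, adjusted p = 0.0208, edgeR). The call was lost when any 1 PRL3 library was left out (adjusted p = 0.0536, 0.0697 and 0.115 without B9, B10 and B11), under upper-quartile scaling (log2 fold change -0.36), when only protein-coding genes were fitted (-0.36) and without any scaling beyond library size (-0.06).

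ANXA11, which tethers RNA granules to lysosomes and is mutated in some motor neuron disease, lies at chr10:80150889-80205572 on the minus strand, on the same chromosome as ANXA7. Its normalized counts were 10311, 12798 and 10554 in the EV libraries and 7984, 7923 and 6840 in the PRL3 libraries. No PRL3 library reached the lowest EV library, and within EV the highest was B2, not B1. The log2 fold change was -0.57 (SE 0.15, 95% interval -0.89 to -0.24, adjusted p = 0.00877, edgeR). It lost its call without PRL3 B11 (adjusted p = 0.0678), with upper-quartile factors (-0.39, adjusted p = 0.0527) and without scaling beyond library size (-0.07).

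ANXA2, ANXA6 and ANXA3 did not pass the test. ANXA2, which with S100A10 forms a complex at the plasma membrane that binds plasminogen and its activator, lies at chr15:60347134-60402883 on the minus strand. It had 94813, 91277 and 81770 normalized counts in EV and 88671, 95717 and 89539 in PRL3, and the libraries of the groups were interleaved. The log2 fold change was 0.03 (SE 0.15, 95% interval -0.29 to 0.35, adjusted p = 0.881, edgeR), and the interval spans changes in either direction. Its sign depended on the scaling: it was -0.01 with RLE scaling, -0.45 with all uniquely aligned reads as library size, and 0.53 with the reads on genes alone as library size, where it was called higher (adjusted p = 0.00267).

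ANXA6, which carries the annexin core in duplicate and acts in endocytosis and cholesterol transport, lies at chr5:151100706-151157815 on the minus strand. Its normalized counts were 8319, 8694 and 7986 in EV and 7083, 7830 and 6954 in PRL3. The groups did not overlap, but the gap between PRL3 B10 and EV B3 was small. The log2 fold change was -0.19 (SE 0.14, 95% interval -0.49 to 0.11, adjusted p = 0.289, edgeR). It was called lower with all uniquely aligned reads as library size (-0.67, adjusted p = 0.00533) and turned to 0.30 with library size alone.

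ANXA3, known to promote growth and migration in several tumours, lies at chr4:78551747-78610451 on the plus strand and had few reads. It had 15, 4 and 1 reads in EV B1, B2 and B3 and 22, 70 and 30 reads in PRL3 B9, B10 and B11. In normalized counts these were 18.3, 4.81 and 0.909 against 22.7, 52.1 and 32.2, so that every PRL3 library lay above every EV library, with B9 close to EV B1. The log2 fold change was 2.18 (SE 0.91, 95% interval 0.22 to 4.13, adjusted p = 0.0685, edgeR). It was called higher in 7 of the alternatives, among them DESeq2 (adjusted p = 0.0497) and the fit without EV B1 (log2 fold change 3.65, adjusted p = 0.0102). In the main fit ANXA3 passed the low-count filter only through its PRL3 counts, and EV B1 held most of its EV reads. These calls therefore do not establish a rise.

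**Figure D2:**
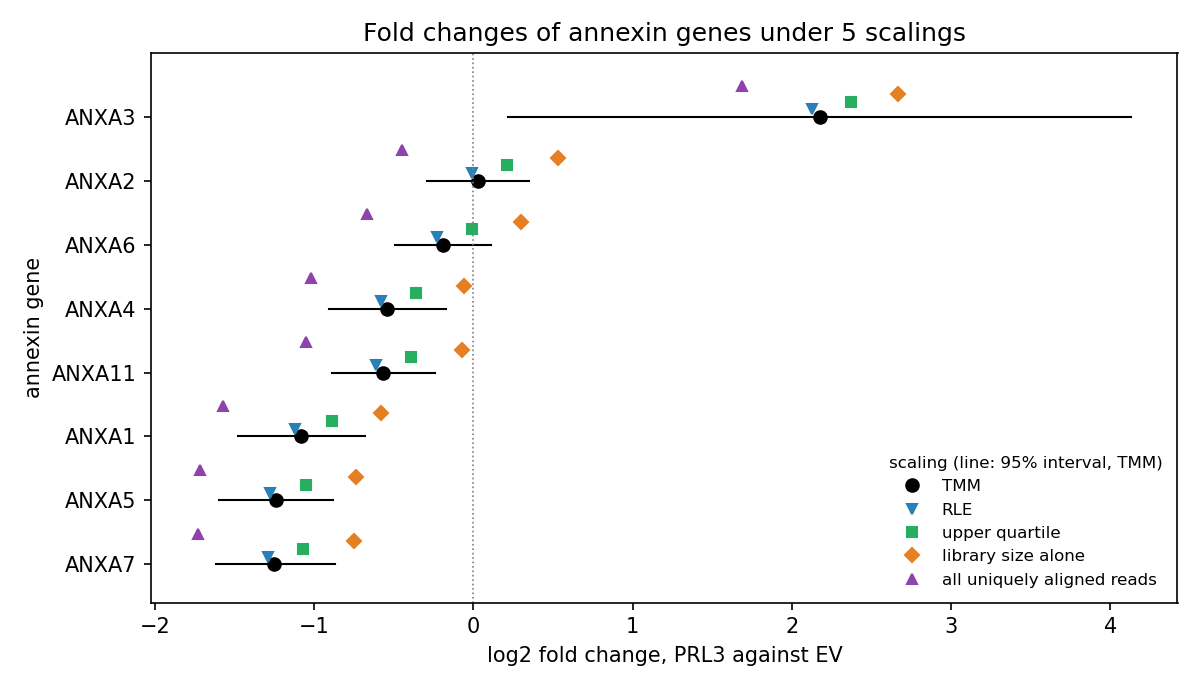
Log2 fold change of each annexin, PRL3 against EV (horizontal axis), under 5 ways of scaling the libraries (symbols), with the 95% interval of the TMM fit as a line. The values of each gene shift together with the scaling, by about the same amount, so that ANXA1, ANXA5 and ANXA7 stay below 0 throughout while ANXA2 and ANXA6 take either sign.

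The scaling moved all genes together. The median log2 fold change of all genes tested was 0.11 with TMM, 0.07 with RLE, 0.29 with upper-quartile factors, 0.60 for library size by itself and -0.37 with all uniquely aligned reads. With TMM, all annexins but ANXA3 lay below that median, whereas ANXA2, at 0.03, lay above the median of the protein-coding genes (-0.15). Because a change of scaling shifts all genes by about the same amount, such positions say nothing about stability across scalings. Comparisons between annexins within a library need no scaling.

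Within libraries, the proportion of ANXA1 to ANXA5 and to ANXA7 overlapped between the groups, whereas its proportion to ANXA2 and to ANXA6 was lower in every PRL3 library than in any EV library. The fall of ANXA1 was known when the genes were chosen. A lower ratio to genes that changed little follows from it, so the p-values of these ratios describe and are no separate support. The log2 ratio of ANXA1 to ANXA5 reads was 2.09, 1.96 and 1.90 in EV B1, B2 and B3 and 2.24, 2.05 and 2.20 in PRL3 B9, B10 and B11. The groups overlapped and the mean ratio differed by 0.18 (exact permutation test, two-sided, p = 0.2). For ANXA7 the mean log2 ratio was 4.25 ± 0.16 (SD, n = 3) in EV and 4.45 ± 0.29 in PRL3, a difference of 0.20 (exact permutation p = 0.4). A p that misses the threshold with 3 against 3 does not show that these genes moved alike.

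Against ANXA2, the log2 ratio of ANXA1 was -0.50, -0.94 and -0.98 in the EV libraries and -1.92, -1.96 and -1.78 in the PRL3 libraries. All PRL3 libraries lay below all EV libraries, with a difference of -1.08 that ran from -1.17 to -0.93 when single libraries were left out. Against ANXA6 the ratio was 3.01, 2.45 and 2.37 in EV and 1.73, 1.65 and 1.91 in PRL3, a difference of -0.85 with no overlap. The exact permutation test gave p = 0.1 for each of ANXA2, ANXA3 and ANXA6, the smallest p that 3 against 3 allows, and 0.233 after Benjamini-Hochberg adjustment over the 7 ratios. Against ANXA4 and ANXA11 the differences were -0.50 and -0.49, and the libraries of the groups overlapped (exact permutation p = 0.2 each). These ratios moved from -0.73 to -0.29 and from -0.63 to -0.23 when a library was left out.

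ANXA2 held 47.3, 51.8 and 52.4% of the summed reads of the 8 genes in EV B1, B2 and B3, and 66.2, 66.5 and 65.5% in PRL3 B9, B10 and B11. ANXA1 held 33.5, 27.1 and 26.5% in EV and 17.5, 17.1 and 19.1% in PRL3. The PRL3 libraries were much closer to each other than the EV libraries were, and neither gene's groups overlapped. The share of ANXA5 was 7.29% ± 0.493 (SD, n = 3) in EV and 3.99% ± 0.243 in PRL3, and that of ANXA7 was 1.52% ± 0.0358 and 0.82% ± 0.11. The PRL3 share minus the EV share was 15.6 percentage points for ANXA2, -11.15 for ANXA1, -3.30 for ANXA5 and -0.697 for ANXA7. Shares of 1 sum are not independent of each other: the normalized counts of ANXA2 were interleaved between the groups, while those of ANXA1, ANXA5 and ANXA7 in the same sum were lower in PRL3. Each of these shares had an exact permutation p of 0.1, as did ANXA3, and 0.16 after adjustment over 8 shares. That of ANXA1 reuses its fall, which was known beforehand. The shares of ANXA4, ANXA6 and ANXA11 overlapped between the groups (exact permutation p = 0.5, 0.2 and 0.3).

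**Figure D3:**
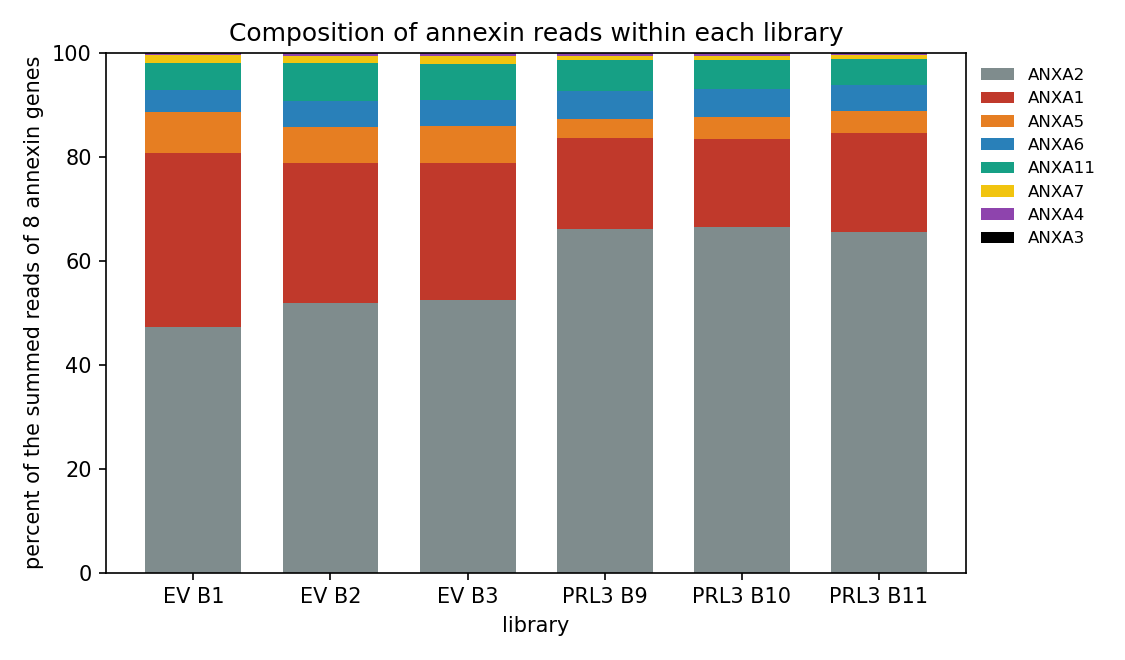
Percent of the summed reads of the 8 annexin genes that each gene held (stacked colors, vertical axis) in each of the 6 libraries (horizontal axis). ANXA2, in grey, takes 47.3 to 52.4% in the EV libraries and 65.5 to 66.5% in the PRL3 libraries, and ANXA1, in red, takes 26.5 to 33.5% in the EV libraries and 17.1 to 19.1% in the PRL3 libraries.

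Together the 8 genes held 0.317% ± 0.0282 (SD, n = 3) of reads on genes in EV and 0.348% ± 0.00751 in PRL3, with overlapping libraries (exact permutation p = 0.3). Their summed normalized counts were 177572 ± 22166 in EV and 138206 ± 5163 in PRL3, with no overlap (exact permutation p = 0.1). The mean of the family sum was thus higher in PRL3 as a share of reads on genes and lower in PRL3 after TMM scaling.

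Levels were compared between genes as TMM-scaled CPM, read counts scaled to the same total, per kilobase of merged exon. In EV the order was ANXA1 at 248 ± 64.2 (SD, n = 3), ANXA2 at 164 ± 12.4, ANXA5 at 94.4 ± 17.7, ANXA6 at 32.1 ± 1.36, ANXA11 at 28.0 ± 3.42, ANXA7 at 20.0 ± 2.76, ANXA4 at 1.83 ± 0.166 and ANXA3 at 0.0347 ± 0.0395. Of the neighbours in that order, the libraries of ANXA6 and ANXA11 overlapped and those of the others did not. In PRL3, ANXA2 at 168 ± 7.05 came before ANXA1 at 118 ± 6.29, and the other 6 kept their places, from ANXA5 at 40.1 ± 3.60 down to ANXA3 at 0.155 ± 0.0652, with no neighbours overlapping. The lead of ANXA1 in EV rested on the length used. Per kilobase of the canonical transcript ANXA2 was first in both groups, at 1220 against 789 for ANXA1 in EV and 1248 against 374 in PRL3. Merged exons of ANXA2 cover 11574 bases and its canonical transcript 1554, whereas those of ANXA1 cover 4453 and 1401.

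**Figure D4:**
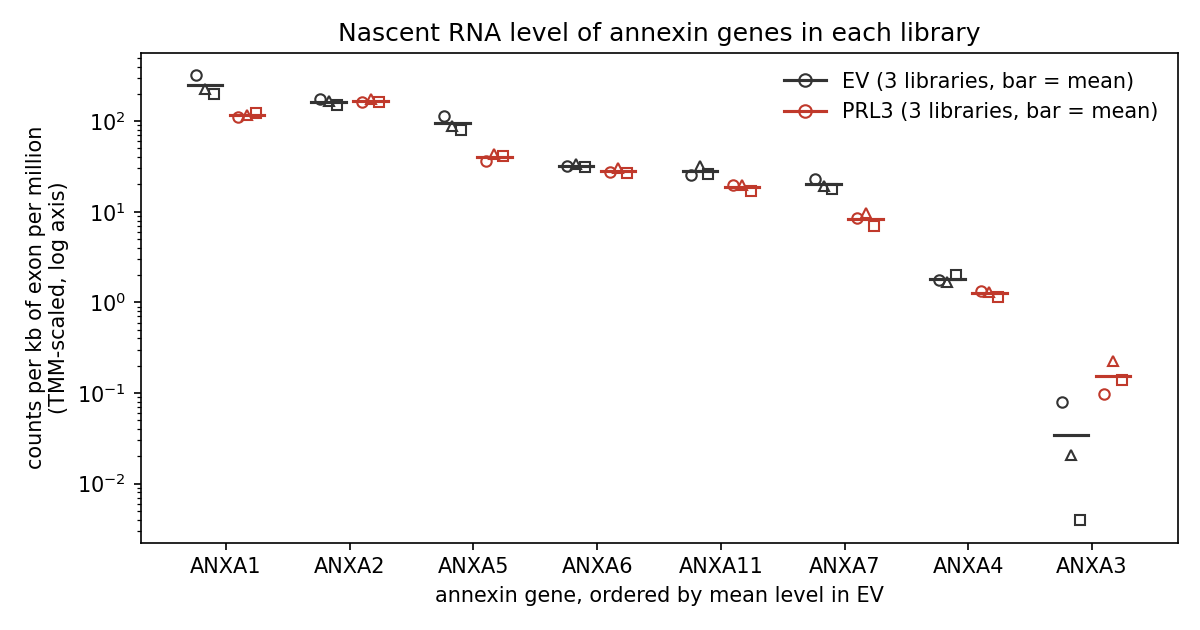
Level of each annexin in TMM-scaled CPM per kilobase of merged exon (vertical log axis) in the 3 EV libraries (dark) and the 3 PRL3 libraries (red), with bars at the group means. By this length ANXA1 and ANXA2 change places between the groups, and ANXA3 lies far below the others. Per kilobase of canonical transcript ANXA2 is first in both groups.

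ANXA1, ANXA5 and ANXA7 have the shortest merged exons of the 8, at 4453, 2925 and 2862 bases, while the other 5 have from 4895 to 11574. The loci of ANXA1, ANXA5 and ANXA7, introns included, are also the shortest, at 18529, 29050 and 38976 bases. Those of the other 5 span 54684 to 182688. By canonical transcript this order does not hold. ANXA1, ANXA5 and ANXA7 have 1401, 1638 and 2443 bases, against 1554 for ANXA2 and 1432 for ANXA3. ANXA4, ANXA6 and ANXA11 are longer, at 2651, 2889 and 6734. The orders by merged exons and by locus length were seen after the values of the genes. They are a description, and a part of length in the annexin results was not tested.

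The promoters of the genes that fell most were set beside that of ANXA2, which did not pass the test, to see whether they share letters. The 8 members matched 12 promoter windows of 300 bases in RefSeq (GRCh38.p14), and the 100 bases before the annotated start of 4 of them are shown on the gene's own strand, 5′ to 3′, with motif matches in capitals. They are chr9:73151765-73151864 (plus strand) for ANXA1, chr4:121696981-121697080 (minus) for ANXA5, chr10:73414059-73414158 (minus) for ANXA7 and chr15:60397987-60398086 (minus) for ANXA2.
ANXA1: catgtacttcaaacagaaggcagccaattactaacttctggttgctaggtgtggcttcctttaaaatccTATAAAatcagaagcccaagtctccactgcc
ANXA5: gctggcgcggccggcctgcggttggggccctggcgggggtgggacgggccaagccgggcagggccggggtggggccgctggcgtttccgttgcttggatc
ANXA7: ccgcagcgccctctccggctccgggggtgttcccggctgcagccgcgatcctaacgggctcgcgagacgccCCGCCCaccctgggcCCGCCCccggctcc
ANXA2: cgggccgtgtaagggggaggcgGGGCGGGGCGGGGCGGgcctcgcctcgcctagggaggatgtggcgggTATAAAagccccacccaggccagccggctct

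Each motif was searched on both strands. The letters TATAAA, bound by the general factor that sets many start sites, occurred in 11.5% of 35116 RefSeq promoter windows. The E-box letters CACGTG occurred in 7.26% and the core of the M-box bound by the melanocyte factor MITF, written CATGTG, in 11.1%. The GC box, written GGGCGG, occurred in 45%. The ANXA1 window had 37.7% G and C and no CpG, whereas those of ANXA5, ANXA7 and ANXA2 had 76.3, 66 and 76% and 36, 23 and 32 CpG. The median of all windows was 58.7%, with a lower quartile of 47%. ANXA1 and ANXA2 each had TATAAA 31 bases before the start, and ANXA5 and ANXA7 had none. The GC box occurred 3 times in the windows of ANXA2, where neighbouring matches overlap by 1 base, and of ANXA7, and once in that of ANXA5, 111 bases before the start and so outside the stretch shown. CACGTG was found for ANXA6, 50 bases before its start, and in the window of the downstream start of ANXA4, and CATGTG only in the window of the downstream start of ANXA6. ANXA11 had TATAAA 61 bases before an annotated start, and the GC box also occurred for ANXA4, ANXA6 and ANXA11. ANXA3 had none of the motifs. None of these motifs was found in ANXA1, ANXA5 and ANXA7 together and absent from ANXA2. This holds for exact matches to these letters, and a part of the promoters in the annexin results was not tested.

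ANXA2 has processed pseudogenes, intronless copies of its mRNA, which can draw off its reads. ANXA2P2 on chromosome 9 is 98.4% identical to the ANXA2 transcript over 1020 aligned positions with 16 mismatches, and 115 of its 871 stretches of 150 bases (13.2%) match it exactly. ANXA2P1 is 93.6% identical and ANXA2P3 91.4%, and none of their stretches of that length match exactly. The 60 coding bases with the most differences between ANXA2 and ANXA2P2, which hold 5 of the 16 mismatches, are shown because reads from there can be told apart. They cover positions 216 to 275 of the ANXA2 transcript, inside its coding sequence (56 to 1072), and chr9:33624434-33624493 (plus strand, GRCh38) in ANXA2P2, 5′ to 3′, with the 5 differing bases in capitals.
ANXA2 transcript: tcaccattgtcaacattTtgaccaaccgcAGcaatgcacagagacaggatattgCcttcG
ANXA2P2: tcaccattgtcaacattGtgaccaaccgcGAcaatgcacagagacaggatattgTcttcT

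ANXA2P2 had 1227, 1594 and 804 reads in EV B1, B2 and B3 and 218, 272 and 218 in PRL3 B9, B10 and B11. ANXA2P1 had 211, 393 and 111 in EV and 26, 54 and 18 in PRL3, and ANXA2P3 had 1 read in all. Reads assigned to ANXA2P2 and ANXA2P1 were lower in every PRL3 library than in any EV library. Their log2 fold changes were -2.65 (SE 0.29, adjusted p = 2.2e-05, edgeR) and -3.24 (SE 0.51, adjusted p = 2.5e-04), while ANXA2 itself did not pass the test. The copies held 1.85, 2.62 and 1.02 reads per 100 reads of ANXA2 in EV and 0.283, 0.254 and 0.282 in PRL3, a ratio chosen after the values were seen (exact permutation p = 0.1). Reads that fit several places equally well are not counted by the tool the authors used, so the split between ANXA2 and ANXA2P2 is uncertain. Adding the copies to ANXA2 gave a log2 fold change of 0.01, and the difference in the ratio of ANXA1 to ANXA2 became -1.06.

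**Figure D5:**
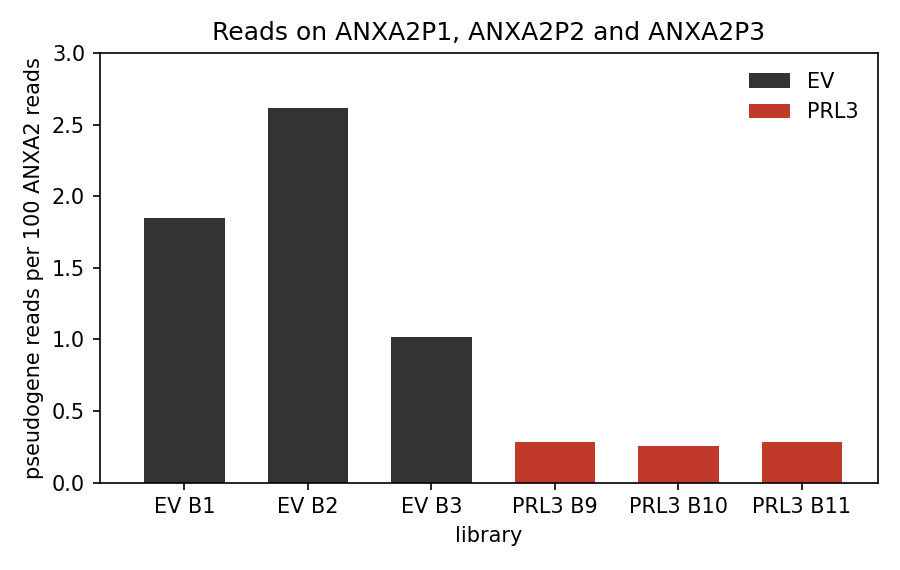
Reads counted on the 3 ANXA2 pseudogenes per 100 reads on ANXA2 (vertical axis) in each library (bars; EV dark, PRL3 red). The EV bars stand at 1.02 to 2.62 and the PRL3 bars at 0.254 to 0.283.

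Of 16 genes that encode partners of annexins, 12 could be tested, 7 were lower and 0 higher in PRL3, beside 22.7% and 20.0% of all genes tested. Their median log2 fold change was -0.71, against 0.11 over all genes tested and -0.15 over the protein-coding genes. The partner list was drawn up with earlier results of these data known, so these values describe the list and test nothing. Among the S100 partners, the log2 fold change was -0.89 for S100A10, which joins ANXA2, -1.41 for S100A11, which binds ANXA1, -2.22 for S100A6 and -2.58 for S100A4 (edgeR adjusted p from 7.3e-06 to 5.1e-04). S100A10 thus had 15807 ± 2005 normalized counts (SD, n = 3) in EV and 8544 ± 734 in PRL3, while its partner ANXA2 had 89287 ± 6745 and 91309 ± 3842. The penta-EF-hand partner SRI (sorcin), which binds ANXA7, had 4763 ± 659 normalized counts in EV and 1959 ± 272 in PRL3, with a log2 fold change of -1.28 (SE 0.17, adjusted p = 6.0e-05, edgeR). ANXA7 had -1.25.

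PDCD6 (ALG-2), which binds ANXA7 and ANXA11, had a log2 fold change of -0.54 (SE 0.16, adjusted p = 0.0169, edgeR), where ANXA7 had -1.25 and ANXA11 -0.57. It lost its call in 6 of the alternatives, and it shares exon bases with 2 other genes on its strand. PLAT, the tissue plasminogen activator held at the surface by ANXA2 and S100A10, had 10426 ± 648 normalized counts in EV and 4390 ± 396 in PRL3, with a log2 fold change of -1.25 (SE 0.15, adjusted p = 2.9e-05, edgeR). The membrane scaffold and repair genes AHNAK, DYSF and MYOF, the phospholipase gene PLA2G4A and the kinase gene TRPM7 had log2 fold changes from -0.38 to 0.13, and none passed the test. The ANXA1 receptor genes FPR1, FPR2 and FPR3 and the plasminogen gene PLG had at most 8 reads in any library and were not tested.

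The other annexin genes ANXA8, ANXA8L1, ANXA9, ANXA10 and ANXA13 had at most 197 reads in any library. ANXA10 alone of these 5 passed the test, with 65, 60 and 139 reads in EV B1, B2 and B3 and 12, 40 and 19 in PRL3 B9, B10 and B11. Its log2 fold change was -2.14 (SE 0.49, adjusted p = 0.00348, edgeR). ANXA8 and ANXA8L1 are near-identical copies whose reads may be split between them, and had log2 fold changes of -0.57 and 0.04. ANXA9 and ANXA13 had -0.59 and -0.69, and ANXA2R, which encodes a receptor for ANXA2 and is no annexin, had 0.09. None of these passed the test.

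The genes whose pattern over the 6 libraries was most like that of ANXA1 were not annexins, which were few among the candidates. By Euclidean distance between log2 CPM, each centred on its own mean, the nearest of 14442 protein-coding genes were EID1 (distance 0.0497), MCM6 (0.0787), IPO5 (0.0842), CIAO2A (0.0892) and KPNB1 (0.11). Their log2 fold changes ran from -1.13 to -1.03, close to that of ANXA1. The ranking thus largely restates fold changes and tests nothing about the family. EID1 encodes an inhibitor of differentiation, MCM6 a part of the replicative helicase, IPO5 and KPNB1 nuclear import receptors, and CIAO2A an iron-sulfur cluster assembly factor. Among the annexins ANXA5 was nearest, at a distance of 0.293 and rank 120, followed by ANXA7 at 0.528 and rank 721. ANXA11 and ANXA4 ranked 3300 and 3326, ANXA6 5296, ANXA2 6901 and ANXA3 14265. Pearson's r with ANXA1 was 0.987 for ANXA5, 0.946 for ANXA7 and 0.0642 for ANXA2, as a description over 6 libraries that share the split into groups.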

How the data were processed

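4sU-labeled RNA from 3 EV and 3 PRL3 libraries of A375 cells had been depleted of ribosomal RNA and sequenced in pairs with a strand-specific kit. The deposited values are raw read counts per gene. The authors checked reads with FastQC 0.11.3, aligned them to GRCh38 with STAR 2.5.1b and obtained the counts with HTSeq 0.6.1 on Ensembl annotation release 91, counting on the reverse strand. The counter's own totals of reads on no gene stayed out of library sizes and tests, except in the alternative with all uniquely aligned reads as library size. Those outside exons are 28.7 to 69.1% of uniquely aligned reads. Depth was 36532207 to 57952035 reads on genes.

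Names, lengths and coordinates came from GENCODE release 44 (GRCh38), which held 57532 of 58243 identifiers, so lengths can differ from those counted. All genes passing filterByExpr were fitted with edgeR 4.0.16 (R 4.3.3; TMM scaling, quasi-likelihood test, two-sided, Benjamini-Hochberg adjustment over 23884 genes, threshold 0.05). The model held the group alone. Ratios and shares, which were taken within libraries (log2 ratios with 0.5 reads added), were compared by exact two-sided permutation tests. The code was tested on simulated counts. It recovered 78 of 200 genes changed 2-fold (39%) and called 4 of 22617 unchanged genes, so a gene not called may still have changed. The changed genes were drawn at random over all levels and were far fewer than those called in these data. The 39% is therefore not the recovery to expect for the annexins. Replicates differed by more than sampling noise (chi-square per gene of at least 22.6 between any pair).

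Named were the 8 annexins, 16 partner genes and 9 other annexin loci, PTP4A3 and the 5 protein-coding genes nearest to ANXA1. Members and lists were chosen with earlier results of these data known. The fixed marker lists also held AXL and NGFR (summed normalized counts of 17783 to 19526 in EV and 12799 to 14250 in PRL3), 3 fibroblast genes (149 to 257 and 138 to 176), 3 leukocyte genes (0 to 10.9 and 3.09 to 12.6) and 2 epithelial genes (9.62 to 12.2 and 19.4 to 28.9). Alternatives were other scalings, DESeq2 1.42.0, limma 3.58.1 (voom), other filters, a threshold of 0.01, protein-coding genes alone, ANXA2 summed with its pseudogenes, and leaving out each library.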

Additional observations from a re-analysis of the deposited data

Results flagged for a closer look

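Reads that aligned uniquely but fell outside annotated exons were counted on no annexin. Among the annexin comparisons, they entered only the alternative that took all uniquely aligned reads as library size. They made up 66.3% ± 3.18 (SD, n = 3) of uniquely aligned reads in the PRL3 libraries and 33.3% ± 6.75 in the EV libraries, and every PRL3 library lay above every EV library (exact permutation p = 0.1). The count tables do not say where these reads lie, so how many fell in annexin introns was not tested.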

How the results depend on the processing

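ANXA1, ANXA5 and ANXA7 kept their direction and call in all 16 alternatives. The number of annexins called lower was 3 with upper-quartile factors, 3 for unscaled library sizes and 3 to 5 when single libraries were left out. The number called higher was 1 with upper-quartile factors, DESeq2, limma-voom, no low-count filter and protein-coding genes only, 2 for unscaled library sizes, and 0 to 1 when single libraries were left out. The median log2 fold change of the annexins was -0.38 with upper-quartile factors, -0.06 for unscaled library sizes, -1.03 with all uniquely aligned reads and -0.37 with protein-coding genes only. ANXA2 turned to -0.01 with RLE factors and -0.45 when all uniquely aligned reads set the library size, and ran from -0.04 to 0.07 when single libraries were left out. ANXA6 turned to 0.30 for unscaled library sizes, where 3 partner genes were higher. The cause was not tested, beyond the shift of all genes that each scaling brings by construction. The share of all genes called lower ran from 12.9% with library size alone to 36.2% with all uniquely aligned reads, and of genes called higher from 39.8% to 8.11%. No paired analysis was possible because B1 to B3 and B9 to B11 have no number in common. With 3 libraries per group, exact tests cannot go below 0.1, and reads on ANXA3 were too few for a stable value.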
